A study of Homo sapiens with 24 samples.

Results

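Secreted inflammatory cytokines and chemokines were measured as mRNA in SW872, an established line of human liposarcoma cells. The 10 genes IL6, IL11, LIF, IL1A, IL1B, CXCL8, CXCL1, CXCL2, CXCL3 and CCL2 were chosen for what they encode, but with earlier results of these data known. Each was found by its Ensembl identifier among the 60279 genes listed for every library. The cells had been stably transduced with a retroviral vector and kept as pooled, G418-selected lines, in triplicate, which gave 24 poly(A) RNA libraries in 8 groups of 3. EV carried the empty vector. TAZ-CAMTA1 and YAP-TFE3 carried the gene fusions of epithelioid hemangioendothelioma, which join the TEAD-binding end of TAZ or YAP to the activating end of CAMTA1 or TFE3. The labels TAZ4SA and YAP5SA name what the study describes as hyperactive forms of full-length TAZ and YAP, in which serines were changed to alanine. TFE3 and CAMTA1 carried those proteins at full length. Cells were confluent for 48 h before collection, except in CAMTA1 and in a second empty vector group titled sub-confluent, EVsub. The study's methods say sub-confluence of lines containing CAMTA1, and the labels name only CAMTA1. TAZ-CAMTA1 was taken as confluent, as labelled. Had it been sub-confluent, its comparisons with confluent groups would also hold a difference in density, which was not tested. All groups came from 1 cell line, and stable selection keeps only cells that tolerate a construct.

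IL-6, IL-11 and LIF are cytokines that signal through the shared receptor chain gp130 (IL6ST) to JAK kinases and STAT3. IL-1α and IL-1β act through IL1R1 and switch on NF-κB, a transcription factor that in turn drives many cytokine genes. CXCL8 and the closely related CXCL1, CXCL2 and CXCL3 attract neutrophils through CXCR1 and CXCR2, and CCL2 attracts monocytes through CCR2.

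The windows of 250 bases before the RefSeq transcription start (GRCh38.p14) are shown for the 4 CXC chemokines, which lie on chromosome 4 and have near-copies of 1 sequence, and for IL6 and IL11, whose levels moved the most among the gp130 cytokines. Capitals mark matches to 3 motifs searched on both strands: the NF-κB consensus, the letters GGAATTTCC, and TGANTCA, the site of AP-1. Each runs 5′ to 3′ on the gene's strand.
CXCL1: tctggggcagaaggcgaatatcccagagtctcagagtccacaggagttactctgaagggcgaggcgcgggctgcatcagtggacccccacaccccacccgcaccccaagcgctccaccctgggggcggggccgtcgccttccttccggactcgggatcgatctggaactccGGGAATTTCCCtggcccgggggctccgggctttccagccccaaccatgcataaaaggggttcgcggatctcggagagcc
CXCL2: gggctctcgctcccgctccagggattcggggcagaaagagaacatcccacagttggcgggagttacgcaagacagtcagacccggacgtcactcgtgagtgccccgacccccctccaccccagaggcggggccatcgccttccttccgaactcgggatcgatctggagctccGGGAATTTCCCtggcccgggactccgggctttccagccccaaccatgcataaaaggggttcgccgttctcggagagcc
CXCL3: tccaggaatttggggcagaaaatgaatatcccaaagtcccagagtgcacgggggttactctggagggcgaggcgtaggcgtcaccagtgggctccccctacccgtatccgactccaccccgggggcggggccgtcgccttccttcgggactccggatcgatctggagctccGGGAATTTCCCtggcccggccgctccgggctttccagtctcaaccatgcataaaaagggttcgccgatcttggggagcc
CXCL8: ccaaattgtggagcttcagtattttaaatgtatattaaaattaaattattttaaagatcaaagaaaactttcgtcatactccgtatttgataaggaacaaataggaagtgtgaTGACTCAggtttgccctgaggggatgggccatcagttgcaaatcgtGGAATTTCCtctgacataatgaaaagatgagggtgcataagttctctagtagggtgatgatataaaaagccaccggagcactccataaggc
IL6: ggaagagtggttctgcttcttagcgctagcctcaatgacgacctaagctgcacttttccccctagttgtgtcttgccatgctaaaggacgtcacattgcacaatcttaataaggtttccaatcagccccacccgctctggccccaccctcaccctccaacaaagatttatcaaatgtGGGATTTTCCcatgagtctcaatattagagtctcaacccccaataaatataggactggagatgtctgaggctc
IL11: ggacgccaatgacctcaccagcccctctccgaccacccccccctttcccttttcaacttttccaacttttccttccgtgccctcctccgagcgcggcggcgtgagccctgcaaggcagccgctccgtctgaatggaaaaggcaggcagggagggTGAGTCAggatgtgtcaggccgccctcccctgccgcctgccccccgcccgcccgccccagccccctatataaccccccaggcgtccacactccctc

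The windows are chr4:73869143-73869392 (plus strand), chr4:74099196-74099445 and chr4:74038690-74038939 (minus strand), chr4:73740319-73740568 and chr7:22726950-22727199 (plus strand) and chr19:55370464-55370713 (minus strand). The letters GGAATTTCC stood in all 4 CXC windows, between 69 and 91 bases before the start, and in 0.415% of 34943 windows of that length. In CXCL1, CXCL2 and CXCL3 they lay inside a longer match that reads as the NF-κB consensus on both strands, while CXCL8 holds the 9 letters without the full consensus. The consensus also matched in IL6, 64 to 73 bases before the start, and in 5.2% of all windows. TGANTCA, held by 6.59% of windows, matched in CXCL8 and IL11, and also in the windows of both start sites of IL1A. The window of IL1B held none of the 3 motifs. Of 3 more motifs searched, TTGCNNAA, in 9.06% of windows, matched in IL6, IL1B and CXCL2, and GGAATG and CACGTG, in 11.9% and 6.32%, matched in no window of the cytokine genes. The windows of CXCL1 and CXCL3 were 81.4% identical, those of CXCL2 and CXCL3 73.3%, and those of CXCL1 and CXCL2 70.4%. The table of windows used here has none for LIF and CCL2.

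Library totals ran from 19700277 to 35287476 counts. The genes of the constructs were checked first. CAMTA1 rose in TAZ-CAMTA1 (144 ± 7.14 CPM against 21.4 ± 2.05 in EV) and in CAMTA1 (124 ± 8.09 against 22.9 ± 1.23 in EVsub), TFE3 rose in TFE3 and YAP-TFE3 (336 ± 19.3 and 283 ± 49.6 against 119 ± 10.1) and YAP1 rose in YAP5SA (253 ± 4.99 against 128 ± 12.5), with edgeR adjusted p-values of 1.71e-08 or less. Smaller rises against EV were not limited to the labels. TFE3 rose in YAP5SA and the libraries labelled TAZ4SA too (log2 fold changes 0.64 and 0.54, edgeR adjusted p = 2.16e-05 and 0.000129). YAP1 was called higher in YAP-TFE3, overlapping EV (0.26, edgeR adjusted p = 0.0341), and in TAZ-CAMTA1 (0.40, edgeR adjusted p = 0.0175), and lower in the libraries labelled TAZ4SA (-0.34, edgeR adjusted p = 0.00706). WWTR1, the gene of TAZ, was not raised where the label would have it. It was 134 ± 0.539 CPM in the libraries labelled TAZ4SA and 204 ± 20.3 in EV, lower with an edgeR adjusted p of 9.77e-07. WWTR1 was lower than in EV also in YAP5SA (68.7 ± 1.66 CPM, log2 fold change -1.57, edgeR adjusted p = 1.7e-13) and YAP-TFE3 (126 ± 3.18 CPM, -0.70, edgeR adjusted p = 9.98e-08). The libraries labelled TAZ4SA lay above YAP5SA (log2 fold change 0.97, edgeR adjusted p = 2.08e-08). WWTR1 was not raised in TAZ-CAMTA1 either (181 ± 2.15 CPM, log2 fold change -0.17, edgeR adjusted p = 0.236), where every library lay below those of EV. The study shows a Western blot for Flag-tagged TAZ4SA in SW872 cells. Why WWTR1 was not raised was not tested. CPM here is a gene's count relative to the library size after TMM scaling (trimmed mean of M-values), and values are means ± SD over 3 libraries. Of markers of other cells, the 9 leukocyte genes summed to 2.64 to 5.44 CPM over all libraries, with PTPRC at no more than 1 count, CD68 and SPI1 at no more than 4, and the other 6 reaching 21 to 62 counts. Of 6 adipocyte markers ADIPOQ had 0 counts in every library, while LPL had 793 to 8371 and PPARG 610 to 3193. Their sum was 149 to 223 CPM in EV, 64.2 to 74.5 in the libraries labelled TAZ4SA, 118 to 132 in YAP5SA and 304 to 370 in YAP-TFE3. The 7 mesenchymal markers, carried by FN1 and VIM with COL3A1 down to 2.01 CPM, summed to 4832 to 5730 CPM in EV, 1925 to 2923 in the libraries labelled TAZ4SA, 2014 to 3627 in YAP5SA and 4169 to 5649 in YAP-TFE3. The 4 endothelial markers summed to 79.8 to 119 CPM in EV, 31.6 to 52.0 in the libraries labelled TAZ4SA, 13.2 to 18.2 in YAP5SA and 35.6 to 52.8 in YAP-TFE3. Epithelial markers, carried by KRT8 and KRT18, summed to 1888 to 2156 CPM in the libraries labelled TAZ4SA and to 3013 to 4026 CPM in YAP5SA, against 198 to 216 CPM in EV. The epithelial sum was 402 to 511 CPM in TAZ-CAMTA1, 243 to 352 in YAP-TFE3 and 436 to 617 in CAMTA1. In TAZ-CAMTA1 the adipocyte sum was 173 to 235, the endothelial 77.4 to 123 and the mesenchymal 5892 to 7595 CPM. In EVsub the epithelial sum was 415 to 446, the endothelial 32.1 to 47.2 and the mesenchymal 2759 to 2955 CPM. The part of these markers in the results was not tested.

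Most of the 10 genes were weakly expressed. Per kilobase of exon, CCL2 was far above the rest with 14.8 CPM per kb over all libraries, followed by IL11 (1.64), LIF (1.04) and CXCL8 (1.02), then IL1B (0.672), CXCL1 (0.575), CXCL2 (0.271), IL6 (0.146), CXCL3 (0.111) and IL1A (0.0548). CCL2 stood at percentile 65.4 of the 19997 genes that averaged 5 counts or more, and CXCL3 at percentile 5.11. These 19997 genes were tested, and 9 of the 10 were among them. IL1A, with 0 to 9 counts a library, was not. At most 3 counts were found for IL1A in 16 of 24 libraries, for CXCL3 in 9, for IL6 in 3 and for CXCL1 in 1. A group with at most 3 counts in each library was taken as at the floor: IL1A was there in TAZ-CAMTA1, the libraries labelled TAZ4SA and YAP5SA, and CXCL3 in CAMTA1 and EVsub. This floor allows for counting error only, and not for differences between replicates.

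**Figure D1:**
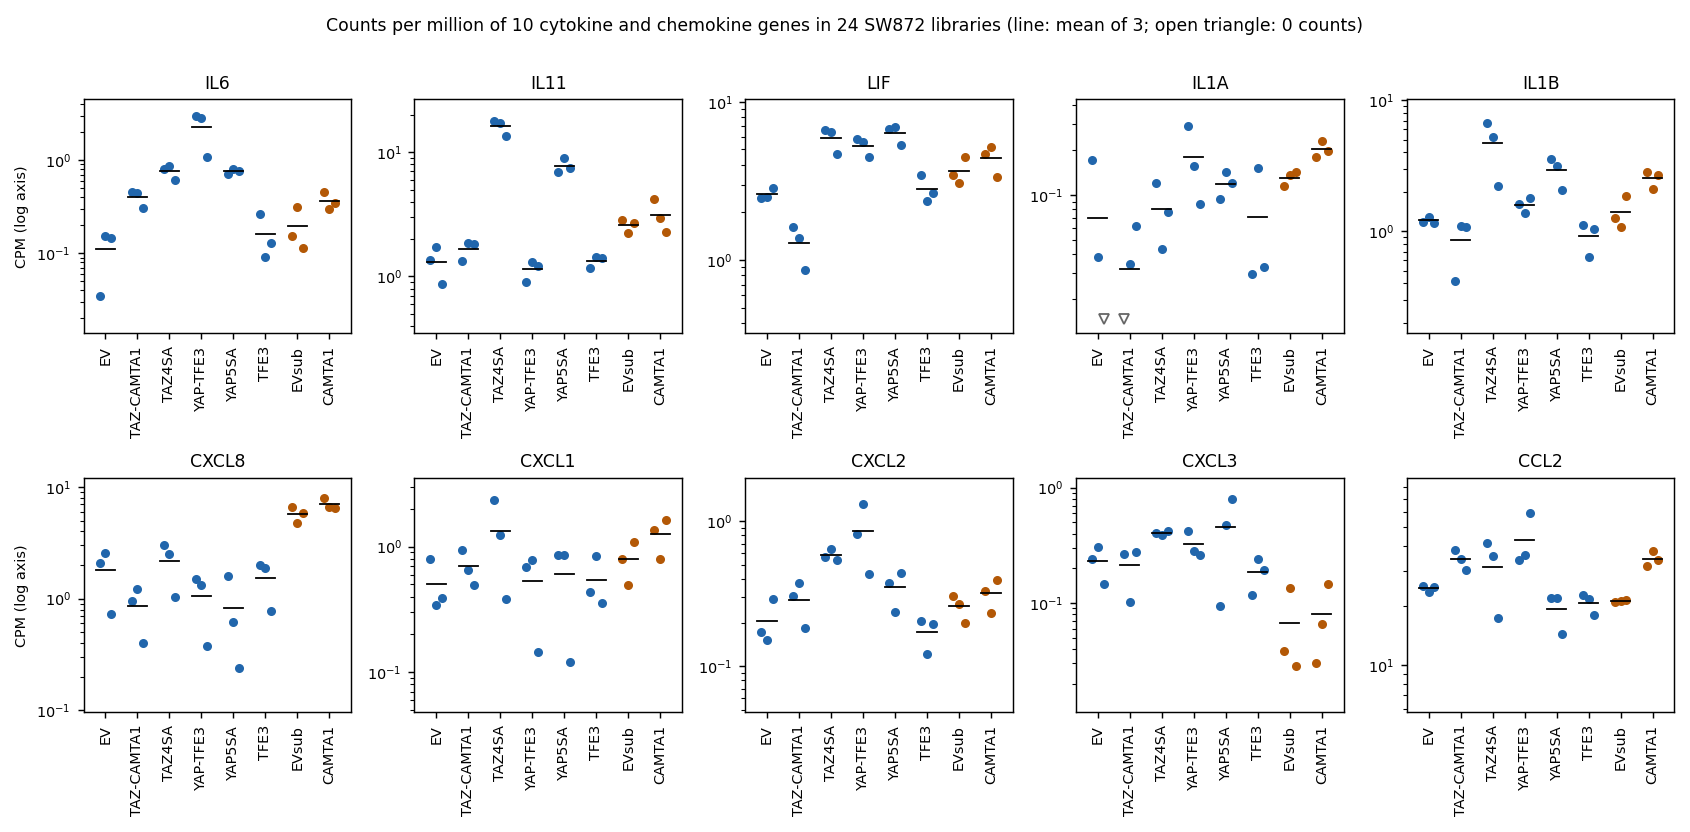
CPM of each of the 10 genes on a log axis, 1 point per library and a line at the mean of 3, with confluent groups in blue, sub-confluent ones in brown and libraries with 0 counts as open triangles. IL11 is highest in the libraries labelled TAZ4SA (13.6 to 17.7 CPM) and next in YAP5SA (6.94 to 9.04 CPM), IL6 in YAP-TFE3 (1.07 to 2.99 CPM), and CXCL8 in both sub-confluent groups (4.73 to 7.97 CPM).

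The comparisons with EV ask what each construct did to these genes. Of the 9 tested genes, 5 rose and 0 fell in the libraries labelled TAZ4SA, where 49.2% of all tested genes passed the same test (edgeR quasi-likelihood, Benjamini-Hochberg adjusted p under 0.05) in either direction, 25.1% higher and 24.2% lower. In YAP5SA 4 rose and 0 fell, beside 44.3% of all genes, with 22.7% higher and 21.6% lower. In YAP-TFE3 4 rose and 0 fell, beside 48.2% of all genes, with 25.6% higher and 22.6% lower. In TAZ-CAMTA1 1 fell and 0 rose, beside 4.98% of all genes, with 3.55% higher and 1.44% lower. The median log2 fold change of the 9 genes was 1.33 in the libraries labelled TAZ4SA, 0.98 in YAP5SA, 0.43 in YAP-TFE3 and 0.33 in TAZ-CAMTA1, and over all tested genes it lay between -0.036 and 0.0049. Each median of the 9 is the value of 1 gene not called there: CXCL1, CXCL3, CXCL3 and IL11, in that order. These values moved between alternatives, as with CXCL1 in the libraries labelled TAZ4SA (0.62 to 1.84) and CXCL3 in YAP5SA (0.27 to 1.44). In bulk RNA, fewer cells that express a gene and less RNA per cell cannot be told apart. These comparisons share the EV libraries.

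IL6, the main acute-phase cytokine, was close to the floor in EV and rose in 3 groups. EV held 1, 4 and 3 counts, the libraries labelled TAZ4SA 20, 20 and 16, YAP5SA 15, 17 and 19, and YAP-TFE3 92, 90 and 37. The groups did not overlap with EV, and the third YAP-TFE3 library held fewer counts than the other two. On the CPM scale the mean rose from 0.111 ± 0.0661 in EV to 2.30 ± 1.06 in YAP-TFE3, a log2 fold change of 4.37 (SE 0.46, edgeR adjusted p = 3.39e-08). The log2 fold change was 2.79 in YAP5SA and 2.79 in the libraries labelled TAZ4SA (edgeR adjusted p = 0.000227 and 0.00018). TAZ-CAMTA1 held 12, 13 and 10 counts, above every EV library, with a log2 fold change of 1.87 (SE 0.60) that missed the threshold (edgeR adjusted p = 0.0741). It passed in a fit on these groups alone (edgeR adjusted p = 0.0432) and without a filter on counts (0.0165), and fell to 1.39 in the alternative that lowered it most. IL6 overlaps IL6-AS1 and STEAP1B on the other strand, and IL6-AS1 holds 6.68% of the 75-base windows of IL6 transcripts. The counting was not stated to use strand, so reads of these genes cannot be told apart.

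IL11, a cytokine of fibroblasts that is linked to fibrosis, rose in YAP5SA and in the libraries labelled TAZ4SA and was not called with either fusion. EV libraries were at 1.35, 1.71 and 0.873 CPM. The libraries labelled TAZ4SA were at 17.7, 17.2 and 13.6 CPM, and YAP5SA at 6.94, 9.04 and 7.39 CPM, all far above EV. The log2 fold change was 3.60 (SE 0.22, edgeR adjusted p = 3.57e-12) and 2.54 (SE 0.22, edgeR adjusted p = 1.81e-09). In YAP-TFE3 the libraries were at 0.911, 1.32 and 1.21 CPM and in TAZ-CAMTA1 at 1.33, 1.85 and 1.81 CPM, both overlapping EV, with log2 fold changes of -0.21 (SE 0.26) and 0.33 (SE 0.25). The order of group means was the libraries labelled TAZ4SA, YAP5SA, CAMTA1, EVsub, TAZ-CAMTA1, TFE3, EV and YAP-TFE3, and from CAMTA1 down each group overlapped the next except EVsub and TAZ-CAMTA1.

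LIF, which keeps stem cells undifferentiated and also acts in inflammation, went in opposite directions with the fusions. EV libraries were at 2.45, 2.51 and 2.86 CPM. YAP-TFE3 was at 5.82, 5.56 and 4.48 CPM, the libraries labelled TAZ4SA at 6.63, 6.49 and 4.71 CPM and YAP5SA at 6.75, 6.90 and 5.35 CPM, all above EV. The log2 fold changes were 1.02, 1.19 and 1.28, with edgeR adjusted p-values of 0.000314, 6.71e-05 and 3.2e-05. TAZ-CAMTA1 was at 1.63, 1.37 and 0.861 CPM, below every EV library, and LIF was the 1 gene of the 9 called there (log2 fold change -1.03, SE 0.24, edgeR adjusted p = 0.012). That call was lost without the third TAZ-CAMTA1 library (log2 fold change -0.79, edgeR adjusted p = 0.129), without the third EV library (-0.96, edgeR adjusted p = 0.0503) and with all libraries thinned to the smallest (-0.81, edgeR adjusted p = 0.0691). LIF overlaps LIF-AS1 and LIF-AS2 on the other strand, which hold 0.57% of its windows.

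IL1B, the secreted IL-1 of inflamed tissue, rose in YAP5SA and in the libraries labelled TAZ4SA. EV libraries were at 1.17, 1.30 and 1.16 CPM. The libraries labelled TAZ4SA were at 6.75, 5.24 and 2.20 CPM, and YAP5SA at 3.54, 3.14 and 2.05 CPM, with the third library the lowest in both and still above EV. The log2 fold changes were 1.96 (SE 0.34, edgeR adjusted p = 3.95e-05) and 1.25 (SE 0.35, edgeR adjusted p = 0.00543). With the fusions they were 0.40 in YAP-TFE3 and -0.47 in TAZ-CAMTA1, not past the threshold. IL1A, the form released from injured cells, had 5, 1 and 0 counts in EV and 9, 5 and 3 in YAP-TFE3. At these counts no fold change is given.

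Among the chemokines CXCL2 rose in 2 groups. EV held 5, 4 and 6 counts, the libraries labelled TAZ4SA 14, 15 and 14, and YAP-TFE3 25, 42 and 15, all above EV. The log2 fold change was 1.53 (SE 0.43, edgeR adjusted p = 0.00552) in the libraries labelled TAZ4SA and 2.07 (SE 0.40, edgeR adjusted p = 0.000142) in YAP-TFE3. The former missed the threshold after thinning to the smallest library (log2 fold change 1.22, edgeR adjusted p = 0.0633). CXCL1, which shares the motif, was at 0.794, 0.343 and 0.388 CPM in EV and at 2.33, 1.25 and 0.386 CPM in the libraries labelled TAZ4SA, where the third library lay among those of EV. Its log2 fold change of 1.33 (SE 0.59) was not called with all libraries (edgeR adjusted p = 0.0645), and was 1.78 without that library (edgeR adjusted p = 0.0106) and 1.84 without the first EV library (edgeR adjusted p = 0.0465), but 0.62 without the first library labelled TAZ4SA (edgeR adjusted p = 0.468). CXCL3 was not called in any construct against EV, and in YAP5SA its libraries ranged from 2 to 20 counts, with a log2 fold change of 0.98 that was 1.44 without the first of them (edgeR adjusted p = 0.0131) and 0.27 without the third (edgeR adjusted p = 0.747). CXCL2 shared 7.56% of its 75-base windows with CXCL1 or CXCL3, CXCL3 4.57% with CXCL2 and CXCL1 0.233%, so part of their counts depends on how reads with several alignments were treated, which was not stated.

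CCL2, the most abundant of the 10 genes, rose in YAP-TFE3. EV libraries were at 25.1, 23.4 and 24.8 CPM and YAP-TFE3 at 34.3, 36.1 and 59.1 CPM, where the third library stood apart. The log2 fold change was 0.82 (SE 0.22, edgeR adjusted p = 0.00368), and 0.53 without that library (edgeR adjusted p = 0.0464). TAZ-CAMTA1 was at 38.4, 34.6 and 30.5 CPM, above every EV library, with a log2 fold change of 0.50 that was not called (edgeR adjusted p = 0.235), and passed in a fit on these groups alone (0.49, edgeR adjusted p = 0.00736) and without a filter on counts (0.51, edgeR adjusted p = 0.00246). In the libraries labelled TAZ4SA the values were 41.6, 35.6 and 17.2 CPM, on both sides of EV, with a log2 fold change of 0.36 that was 0.66 without the third library (edgeR adjusted p = 0.00528) and 0.11 without the first (edgeR adjusted p = 0.733).

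CXCL8, a potent neutrophil attractant, was not called in any construct against EV with all libraries. Its log2 fold changes were 0.25 in the libraries labelled TAZ4SA, -0.81 in YAP-TFE3, -1.12 in TAZ-CAMTA1 and -1.20 in YAP5SA (edgeR adjusted p between 0.0876 and 0.698). EV libraries spread from 0.727 to 2.59 CPM, and the value for YAP5SA was -1.54 without the third EV library (edgeR adjusted p = 0.032) and -2.13 without the first YAP5SA library (edgeR adjusted p = 0.016), but -0.72 without the third (edgeR adjusted p = 0.327). It passed with total-count scaling (-1.39, edgeR adjusted p = 0.0436). Without a filter on counts CXCL8 was called lower in YAP5SA, YAP-TFE3 and TAZ-CAMTA1 (edgeR adjusted p = 0.000108, 0.00761 and 0.00109). The library numbered 3 held the lowest CXCL8 level in 7 of 8 groups, EVsub being the exception. It held the lowest CXCL1 level in 5 of 8, the lowest LIF level also in 5, and that of the other genes in 2 to 4. The labels give no batch or day that the numbers could stand for.

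**Figure D2:**
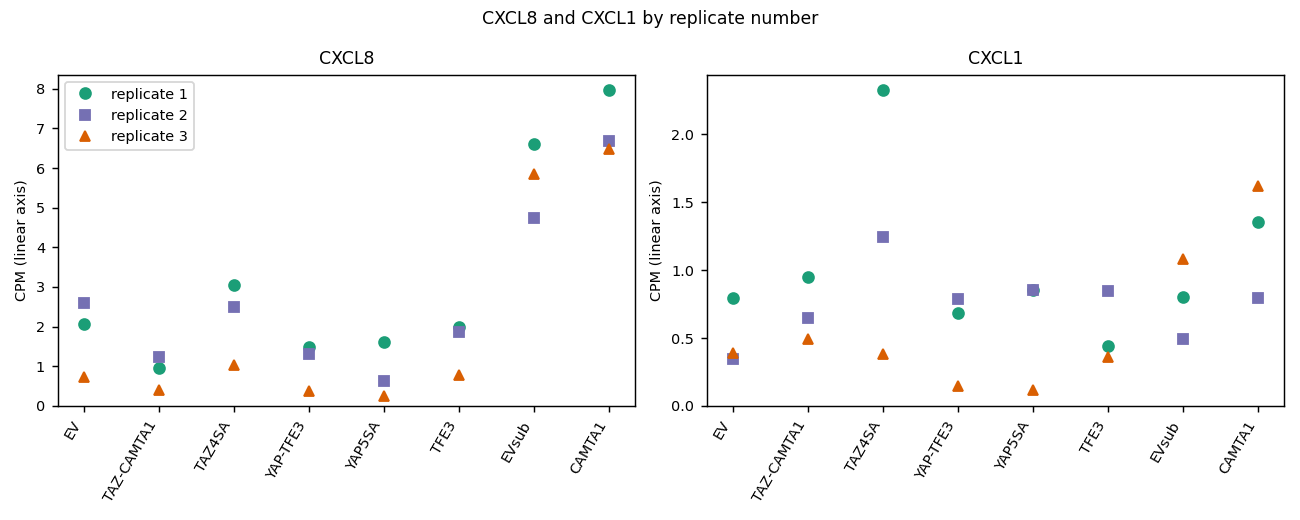
CPM of CXCL8 and CXCL1 (linear axis) in each group, with the replicate number as the marker. For CXCL8 replicate 3 is lowest in every group but EVsub, and both sub-confluent groups lie at 4.73 CPM or more, above every confluent library.

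Full-length TFE3 against EV gave 0 calls among the 9 genes with edgeR, beside 0.035% of all tested genes, each of them higher, 0 genes with an unadjusted p under 0.05 and 0 calls with DESeq2. Log2 fold changes ran from -0.38 (IL1B) to 0.60 (IL6). CAMTA1 against EVsub, both sub-confluent, also gave 0 calls with edgeR and 0 with DESeq2, beside 1.83% of all genes (1.26% higher and 0.57% lower), with 2 genes at an unadjusted p under 0.05, IL1B and CCL2. CCL2 was at 31.7, 37.7 and 33.9 CPM in CAMTA1 and at 20.9, 21.2 and 21.3 CPM in EVsub, without overlap, and its log2 fold change of 0.71 (SE 0.22) had an edgeR adjusted p of 0.124. Fitted on these 2 groups alone, it passed (log2 fold change 0.71, edgeR adjusted p = 0.000484).

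EVsub against EV compares the density of cells without a construct. Of the 9 genes 2 rose and 1 fell, beside 36.8% of all tested genes (19.8% higher and 17.1% lower). CXCL8 was at 6.60, 4.73 and 5.85 CPM in EVsub against 2.07, 2.59 and 0.727 CPM in EV, a log2 fold change of 1.64 (SE 0.44, edgeR adjusted p = 0.00576). The groups did not overlap, and CXCL8 in CAMTA1, also sub-confluent, lay between 6.48 and 7.97 CPM. IL11 was at 2.82, 2.25 and 2.67 CPM in EVsub, above every EV library (log2 fold change 0.96, edgeR adjusted p = 0.00302). CXCL3 went the other way, with 1, 3 and 1 counts in EVsub, at the floor, against 7, 8 and 3 in EV. By group means that is at least 2.07-fold lower against a floor of 3 counts per library, with an edgeR adjusted p of 0.0473. The bound does not hold for single libraries, as the third EV library also had 3 counts. The call rested on few counts: it was lost without the first or the second EV library, without the first or the last EVsub library (edgeR adjusted p between 0.0887 and 0.187) and with DESeq2 (adjusted p = 0.0607). LIF was above every EV library in EVsub, with a log2 fold change of 0.51 (edgeR adjusted p = 0.071) that was 0.62 without the second EVsub library (edgeR adjusted p = 0.0481). Density and any other difference between the sets of EV libraries cannot be told apart.

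TAZ-CAMTA1 was then set against the libraries labelled TAZ4SA, and YAP-TFE3 against YAP5SA. In TAZ-CAMTA1 against the libraries labelled TAZ4SA 5 of 9 genes were lower and 0 higher, beside 53.7% of all tested genes (26.9% higher and 26.8% lower). IL11 differed most (1.66 ± 0.292 against 16.2 ± 2.25 CPM, with a log2 fold change of -3.27, SE 0.21, edgeR adjusted p = 8.4e-12), followed by IL1B (0.863 ± 0.387 against 4.73 ± 2.32 CPM, -2.42, edgeR adjusted p = 2.71e-06) and LIF (1.29 ± 0.391 against 5.94 ± 1.07 CPM, -2.22, edgeR adjusted p = 2.39e-08). None of these 3 genes overlapped between the groups. CXCL8 (log2 fold change -1.36, edgeR adjusted p = 0.0317) and CXCL2 (-1.02, edgeR adjusted p = 0.0326) were called less firmly: both calls were lost without the first or second library labelled TAZ4SA and without the first or the third TAZ-CAMTA1 library, CXCL8 with edgeR adjusted p-values of 0.0512 to 0.156 and CXCL2 with 0.0509 to 0.134. Both were also lost with DESeq2 (adjusted p = 0.0573 and 0.0707) and with total-count scaling (edgeR adjusted p = 0.0644 and 0.0802), and CXCL2 with thinned libraries too (-0.62, edgeR adjusted p = 0.305) and without a filter on counts (edgeR adjusted p = 0.0606). CXCL8 overlapped between these groups. Without the third library labelled TAZ4SA, CXCL1 was lower by a log2 fold change of -1.38 (edgeR adjusted p = 0.0294), against -0.93 with it (edgeR adjusted p = 0.16). CCL2, at 34.5 ± 3.95 and 31.5 ± 12.7 CPM, had a log2 fold change of 0.13 (SE 0.22).

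YAP-TFE3 against YAP5SA split the genes, with 3 higher and 2 lower, beside 52.4% of all tested genes (28.1% higher and 24.3% lower). IL6 (log2 fold change 1.58, SE 0.33, edgeR adjusted p = 0.000322), CXCL2 (1.24, edgeR adjusted p = 0.00628) and CCL2 (1.16, SE 0.23, edgeR adjusted p = 0.000133) were higher with the fusion. For CCL2 the values were 34.3, 36.1 and 59.1 CPM against 21.8, 21.7 and 14.4 CPM, without overlap. IL11 was lower (1.15 ± 0.212 against 7.79 ± 1.10 CPM, log2 fold change -2.75, edgeR adjusted p = 2.86e-10), as was IL1B (-0.85, edgeR adjusted p = 0.033). The call of CXCL2, whose groups overlapped, was lost without the second YAP-TFE3 library (0.79, edgeR adjusted p = 0.0792) and in a fit on these groups alone (edgeR adjusted p = 0.051), and that of IL1B without the first or second library of either group (edgeR adjusted p between 0.0651 and 0.137) and with total-count scaling (0.0564). LIF, higher in both than in EV, had a log2 fold change of -0.26 (SE 0.20) between them. CXCL3 was not called (-0.55), and was at -1.01 without the first YAP5SA library (edgeR adjusted p = 0.0452) and at 0.17 without the third.

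Between the fusions, 3 of 9 genes were lower and 0 higher in TAZ-CAMTA1 than in YAP-TFE3, beside 42.7% of all tested genes (19.9% higher and 22.8% lower). IL6 (log2 fold change -2.50, SE 0.35, edgeR adjusted p = 3.4e-06), LIF (-2.05, SE 0.23, edgeR adjusted p = 1.02e-07) and CXCL2 (-1.56, SE 0.36, edgeR adjusted p = 0.0011) were lower, and no library of TAZ-CAMTA1 reached the lowest of YAP-TFE3 in any of them. CCL2 overlapped between the fusions (-0.33, SE 0.22). The libraries labelled TAZ4SA set against YAP5SA gave 1 call, IL11, which was higher (log2 fold change 1.05, SE 0.19, edgeR adjusted p = 0.000518), beside 7.17% of all genes (3.53% higher and 3.64% lower). For IL6 and LIF the difference was -0.01 (SE 0.39) and -0.09 (SE 0.20), which does not show that their levels were the same. CCL2 (0.71), IL1B (0.70) and CXCL8 (1.45) were not called (edgeR adjusted p = 0.061, 0.209 and 0.135). Without the third library labelled TAZ4SA, CCL2 (1.00, edgeR adjusted p = 0.00121) and IL1B (1.05, edgeR adjusted p = 0.0165) passed too, and CXCL8 passed without the first YAP5SA library (2.38, edgeR adjusted p = 0.0414).

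**Figure D3:**
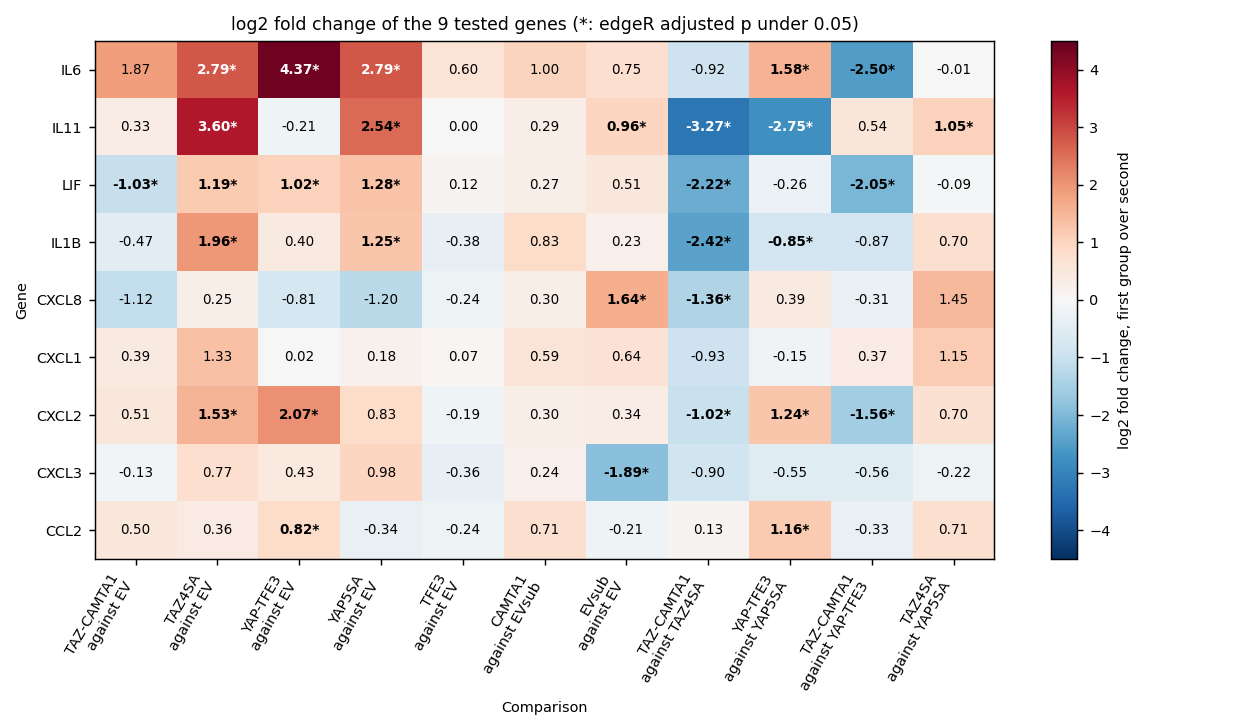
Log2 fold change (colour and printed value) of the 9 tested genes in the 11 comparisons, first group over second, with an asterisk where the edgeR adjusted p was under 0.05. IL6 reaches 4.37 in YAP-TFE3 against EV, and IL11 goes from 3.60 in the libraries labelled TAZ4SA to -0.21 in YAP-TFE3 against the same EV libraries.

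Levels of some of the genes moved together across the 24 libraries, which share groups and constructs. The highest Pearson correlation of log2 CPM was 0.87 for IL6 with CXCL2, then 0.79 for IL11 with IL1B and 0.74 for LIF with IL1B. CXCL8 and CXCL1 correlated at 0.66, and CXCL8 and CXCL3 at -0.67. Among 11524 or 11525 other protein-coding genes, ITPR3 (0.97) and PDGFB (0.97) were most like IL11, PLAU (0.89) and TMX2 (0.89) most like LIF, DCAF4 (0.92) and CMTM7 (0.88) most like IL1B, ANO1 (0.92) and PDCL3 (0.91) most like CXCL8, and TACC2 (0.77) and ANXA6 (0.76) most like CCL2.

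The receptors of these cytokines were read after their values had been seen. IL6R, the chain that binds IL-6, was at 8.93 ± 1.63 CPM in EV and rose in TAZ-CAMTA1, YAP-TFE3, YAP5SA and the libraries labelled TAZ4SA, most in YAP-TFE3 (66.4 ± 7.75 CPM, log2 fold change 2.89, edgeR adjusted p = 1.26e-15), and by 1.15 in TAZ-CAMTA1, 1.14 in YAP5SA and 1.37 in the libraries labelled TAZ4SA. In EVsub, without a construct, IL6R was at 15.4 ± 0.865 CPM, beside 19.8 ± 0.610 in TAZ-CAMTA1. IL6ST, which encodes gp130, fell in the libraries labelled TAZ4SA (128 ± 36.0 against 521 ± 56.8 CPM, log2 fold change -2.03, edgeR adjusted p = 4.27e-06) and also in YAP5SA (-1.19, edgeR adjusted p = 0.00159), and was not called with either fusion. LIFR, the receptor of LIF, fell in the libraries labelled TAZ4SA and YAP5SA too (log2 fold changes -1.94 and -1.73), as did IL1R1 (-1.54 and -1.31), and both rose in YAP-TFE3 (0.56 and 0.57). IL11RA was not called in these 4 groups. CXCR1, a receptor of CXCL8, had 0 counts in every library, and CXCR2 was at the floor in all 8 groups. CCR2, the receptor of CCL2, was at the floor in EV. By group means against that floor it was at least 4.75-fold higher in YAP-TFE3 (0.575 ± 0.250 CPM, edgeR adjusted p = 0.000112) and at least 2.81-fold higher in TAZ-CAMTA1 (edgeR adjusted p = 0.0281). Several of these genes overlap others, so that reads on the other strand could be counted with them: IL6R, IL6ST, LIFR, IL11RA and IL1R1 do.

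Beside the 10 genes, 121 related genes of cytokine signalling were looked up, and 97 were tested. This list too was chosen with earlier results of these data known. In the libraries labelled TAZ4SA 43 rose and 21 fell (66% of 97, against 49.2% of all genes), in YAP-TFE3 53 rose and 12 fell (67%, against 48.2%), in YAP5SA 34 rose and 21 fell (56.7%, against 44.3%) and in TAZ-CAMTA1 8 rose and 4 fell (12.4%, against 4.98%). Of other cytokines 10 of 16 rose in the libraries labelled TAZ4SA, 8 in YAP5SA and 10 in YAP-TFE3, with 2, 1 and 0 that fell, beside 25.1%, 22.7% and 25.6% of all genes higher and 24.2%, 21.6% and 22.6% lower. IL32, a cytokine of inflamed tissue, rose from 1.52 ± 0.343 CPM in EV to 24.5 ± 3.38 in YAP-TFE3, 17.6 ± 7.27 in YAP5SA and 17.5 ± 5.10 in the libraries labelled TAZ4SA (log2 fold changes 4.0, 3.52 and 3.51). TNFSF15, a TNF family cytokine, rose by 3.08 in YAP-TFE3 (edgeR adjusted p = 8.33e-09). Of 8 other chemokines 5 rose and 0 fell in YAP-TFE3, beside the same shares of all genes, led by CX3CL1, a membrane-bound attractant (42.1 ± 7.60 against 4.41 ± 0.732 CPM, log2 fold change 3.25), while 3 rose and 3 fell in YAP5SA and in the libraries labelled TAZ4SA. There CXCL12, which attracts lymphocytes and progenitor cells, fell from 7.39 ± 1.81 CPM to 0.891 ± 0.180 in YAP5SA and 0.584 ± 0.0947 in the libraries labelled TAZ4SA. CXCL12 was lower than in EV also in EVsub (3.40 ± 1.75 CPM, log2 fold change -1.16, edgeR adjusted p = 0.00731), where libraries overlapped. CXCL14 rose in TAZ-CAMTA1 (log2 fold change 2.03, edgeR adjusted p = 0.000125) and in YAP5SA (3.27). Its mean was 1.59 ± 0.254 CPM in EV, 4.57 ± 0.711 in the libraries labelled TAZ4SA and 0.882 ± 0.247 in YAP-TFE3.

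Of 20 NF-κB factors and brakes 11 rose and 1 fell in the libraries labelled TAZ4SA (60% called, against 49.2% of all genes, of which 25.1% rose and 24.2% fell). In YAP-TFE3 10 rose and 2 fell (60%, against 48.2%, with 25.6% higher and 22.6% lower), in YAP5SA 8 rose and 2 fell (50%, against 44.3%, with 22.7% higher and 21.6% lower), and TAZ-CAMTA1 had 0 calls, beside 4.98%. Of 11 genes that NF-κB induces, 8 rose and 1 fell in YAP-TFE3 (81.8% called, against 48.2% of all genes). In the libraries labelled TAZ4SA 5 rose and 4 fell (81.8%, against 49.2%), and in YAP5SA 4 rose and 4 fell (72.7%, against 44.3%). In TAZ-CAMTA1 0 rose and 2 fell (18.2%, against 4.98%). Among them SAA1, an acute-phase protein, was at 8.28 ± 0.693 CPM in the libraries labelled TAZ4SA against 0.194 ± 0.0844 in EV (log2 fold change 5.45, edgeR adjusted p = 2.15e-13). In YAP5SA it was at 2.62 ± 0.441 CPM. SAA1 and SAA2 are near copies, so their reads may be split. PTX3, a pentraxin that marks microbes for clearance, fell in TAZ-CAMTA1 (95 ± 4.98 against 170 ± 36.3 CPM, log2 fold change -0.84) and in YAP-TFE3 (-1.10). In YAP-TFE3 it was the 1 gene of these 11 that fell. TNFRSF11B, a decoy receptor of the TNF family, fell in 3 groups, with log2 fold changes of -2.29 in YAP5SA, -2.05 in the libraries labelled TAZ4SA and -1.29 in YAP-TFE3. In the JAK-STAT3 group PIM1, a STAT3 target kinase, rose by 2.52 in the libraries labelled TAZ4SA and by 0.99 in TAZ-CAMTA1. SOCS2, a brake on JAK signalling, fell in YAP-TFE3 (-1.46) and less in TAZ-CAMTA1 (-0.42, edgeR adjusted p = 0.0253). Its mean was 30.3 ± 3.33 CPM in YAP5SA against 25.6 ± 3.03 in EV. TFE3 against EV gave 0 calls among the 97 genes with edgeR, 4 at an unadjusted p under 0.05 and 0 with DESeq2, and CAMTA1 against EVsub 5 (5.15%, against 1.83% of all genes), of which 1 fell, IL6R (10.2 ± 0.821 against 15.4 ± 0.865 CPM). In EVsub against EV 23 rose and 19 fell (43.3%, against 36.8% of all genes), among them VCAM1, which holds leukocytes at the vessel wall, with a log2 fold change of -1.49, TNFAIP3, a brake on NF-κB, with a log2 fold change of -1.32 and PIM1 with 0.87. CXCL14, IL32, PTX3, SOCS2 and TNFAIP3 overlap other genes on the other strand.

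**Figure D4:**
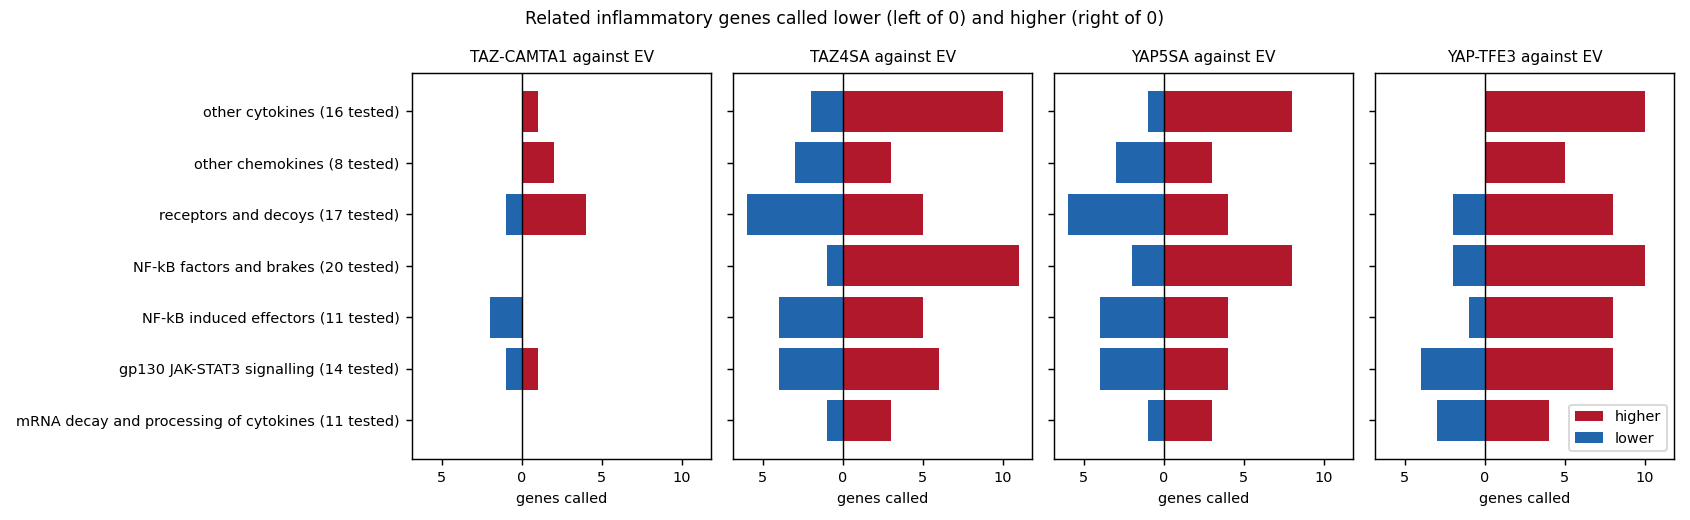
Number of related genes called higher (red, right) and lower (blue, left) against EV, in 7 functional groups and 4 comparisons. In YAP-TFE3 10 of 16 other cytokines and 5 of 8 other chemokines rose and 0 fell, beside 25.6% of all tested genes higher and 22.6% lower. In TAZ-CAMTA1 the receptors and decoys have the most upward calls, 4 of 17, with 1 lower, beside 3.55% of all genes higher and 1.44% lower.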

How the data were processed

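RNA was measured by poly(A) selection, stranded TruSeq libraries and 75 bp paired-end sequencing. The authors aligned reads to hg38 with Hisat2 in bcbio-nextgen and deposited raw counts per Ensembl gene, 1 table per library. The counting tool, its use of strand and its treatment of reads with several alignments were not given in the sources used here. The authors' own tests used DESeq2 on salmon estimates, which were not used here.

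Here all 24 libraries were fitted together in edgeR 4.0.16 (R 4.3.3) with TMM scaling and 1 mean per group, groups and replicate numbers coming from the sample titles. The 19997 genes that averaged 5 counts or more were tested by the quasi-likelihood F test with Benjamini-Hochberg adjustment over all of them. SE is the fold change over the root of F. Log2 CPM for correlations used a prior count of 2. Per the study's methods, replicates came from separate transductions.

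Alternatives were DESeq2 1.42.0, its size factors, total-count scaling, other filters, fits on the compared groups only, a replicate block, thinning, and leaving out each library. Genes, coordinates and overlaps came from GENCODE 44 and windows from RefSeq. The genes and lists were chosen with earlier results of these data known. Of 122 related genes listed, 121 were matched to a gene and SOD2 was not used. Related genes were named, up to 3 in each direction per comparison, by size of change among called genes that averaged 100 counts in the groups compared, and the genes most like a cytokine by Pearson correlation over 24 libraries (2 each, among protein-coding genes that averaged 100 counts, for cytokines that averaged 50). Totals give the depth. Amplification copies could not be told apart from other reads. The floors allow for counting error only, and not for such copies or for differences between replicates.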

Additional observations from a re-analysis of the deposited data

How the results depend on the processing

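Of 31 called results of the 9 genes, 24 were called in every alternative and 7 were lost in at least 1, 6 of them on leaving out 1 library. None of the 31 changed sign. Of 68 results not called, 23 were called in at least 1 alternative and 21 changed sign in at least 1. CXCL3 in YAP-TFE3 against YAP5SA (-0.55) was 0.17 without the third YAP5SA library and -1.01 without the first. CXCL3 in EVsub against EV (-1.89) was -2.70 without the second EVsub library, a fitted value with EVsub at the floor. Without a filter on counts 19 calls were gained and 2 lost, giving 4 calls of the cytokine genes in TAZ-CAMTA1 against EV, 2 in CAMTA1 against EVsub, 6 in TAZ-CAMTA1 against YAP-TFE3 and 5 in the libraries labelled TAZ4SA against YAP5SA, and 21, 8 and 18 related genes in the first, second and last of these, with 1 in TFE3 against EV. Fits on the 2 groups compared gave 3 calls in TAZ-CAMTA1 against EV and 1 in CAMTA1 against EVsub. Thinning gave 0 in TAZ-CAMTA1 against EV. Total-count scaling and DESeq2 each gave 3 in TAZ-CAMTA1 against the libraries labelled TAZ4SA, and DESeq2 gave 2 in the libraries labelled TAZ4SA against YAP5SA. Total-count scaling moved the median log2 fold change of all genes by -0.18 in YAP5SA and -0.20 in the libraries labelled TAZ4SA against EV and by 0.20 in TAZ-CAMTA1 against the libraries labelled TAZ4SA. The causes were not tested. DESeq2 size factors and filterByExpr changed no call of the 9 genes.

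Leaving out 1 library gave 0 to 1 calls of the 9 genes in TAZ-CAMTA1 against EV, 3 to 6 in TAZ-CAMTA1 against the libraries labelled TAZ4SA, 3 to 5 in YAP-TFE3 against YAP5SA and 1 to 3 in the libraries labelled TAZ4SA against YAP5SA. For related genes it gave 1 to 4 in CAMTA1 against EVsub (at most 3 without any 1 of these 6 libraries other than the first CAMTA1 library) and 6 to 13 in the libraries labelled TAZ4SA against YAP5SA (6 without the first library labelled TAZ4SA). Replicate numbers were not treated as pairs, by a rule that every pair in a comparison correlates above 0.1. This held in none of the 11 comparisons (mean correlations -0.026 to 0.19, single pairs -0.24 to 0.37). The rule does not show that libraries of 1 number share nothing. The replicate block gained 6 calls and lost 0, with 2 calls in TAZ-CAMTA1 against EV and 2 in the libraries labelled TAZ4SA against YAP5SA. The calls gained were IL6 in TAZ-CAMTA1 (1.91, edgeR adjusted p = 0.036), CXCL8 in YAP5SA (-1.17, 0.0277), CXCL1 in the libraries labelled TAZ4SA (1.31, 0.049) and LIF in EVsub (0.53, 0.0457) against EV, IL6 in TAZ-CAMTA1 against the libraries labelled TAZ4SA (-0.91, 0.0386), and CXCL8 in the latter against YAP5SA (1.44, 0.0332). Depth limited IL1A, which was not tested, and CXCL3, IL6 and CXCL2, whose folds rest on few counts.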

Other observations

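Related genes also differed in the direct comparisons. Between YAP-TFE3 and YAP5SA 49 of the 97 tested genes were higher and 21 lower (72.2%, against 52.4% of all genes). CX3CL1 was at 42.1 ± 7.60 against 1.75 ± 0.361 CPM (log2 fold change 4.60), CXCL12 at 6.81 ± 2.42 against 0.891 ± 0.180 CPM (2.94), CXCL16, an attractant bound to the membrane, at 55.0 ± 10.7 against 8.94 ± 1.62 CPM (2.62), and CXCL14 at 0.882 ± 0.247 against 15.3 ± 5.64 CPM (-4.12). TAZ-CAMTA1 against the libraries labelled TAZ4SA gave 28 higher and 38 lower (68%, against 53.7%). There CXCL12 was at 6.60 ± 2.01 against 0.584 ± 0.0947 CPM (3.49) and IL6ST at 705 ± 107 against 128 ± 36.0 CPM (2.46), and SAA1 (-5.48), IL32 (-2.96) and RELB, a member of the NF-κB family (-1.99), were lower.

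Between TAZ-CAMTA1 and YAP-TFE3 12 were higher and 47 lower (60.8%, against 42.7%), with CXCL14 at 6.48 ± 1.46 against 0.882 ± 0.247 CPM (2.88). IL32 (-3.45), TNFSF15 (-2.62) and ICAM1, which holds leukocytes at the vessel wall (126 ± 12.5 against 741 ± 102 CPM, -2.56), were lower. The libraries labelled TAZ4SA against YAP5SA gave 8 higher and 3 lower (11.3%, against 7.17%), with SAA1 at 8.28 ± 0.693 against 2.62 ± 0.441 CPM (1.66). The differences named here had edgeR adjusted p-values of 3.68e-06 or less. CXCL14, CXCL16, IL32, IL6ST and ICAM1 overlap other genes on the other strand, and IL32 and SAA1 on their own.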
